A study of Mus musculus with 3 samples.

Results

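The progesterone receptor gene *Pgr* and 6 genes known to act with or under it at ovulation, *Adamts1*, *Edn2*, *Ctsl*, *Zbtb16*, *Cited2* and *Pparg*, were described in single cells of mouse ovaries. The 7 genes were chosen by name, all were measured, and they are 7 of the 24958 genes of the table. The samples were 3 libraries of whole ovaries made on the 10x Genomics platform, labelled H0, H1 and H6 and collected 0, 1 and 6 h after an injection of hCG, which acts as the ovulatory surge of luteinizing hormone, with 1 library per time. The mice were of the Kunming stock, aged 21 days, and per the study's methods ovaries were taken 48 h after they were given PMSG, which drives follicles to the preovulatory stage. That timing matches the library at 0 h only. Whether the other 2 libraries had the same priming is not given in the sources used here, and neither is the number of animals. The labels name no transgene and no mutation. The 31776 cells came as 1 table whose cell barcodes end in 1, 2 or 3. No source used here says which ending belongs to which library, so the cells of an ending were called a barcode set and no time was given to any set. With 1 library per time there was no replicate, no test was made, and all intervals below cover counting error only.

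PGR is a nuclear receptor that binds progesterone and then acts as a transcription factor. In the ovary it is induced in the granulosa cells (GCs) of preovulatory follicles by the luteinizing hormone surge, its mRNA is transient, and mice that lack it form mature follicles that do not rupture. ADAMTS1 is a secreted protease that cleaves versican in the follicle wall and the cumulus matrix, EDN2 is a peptide that contracts smooth muscle, and CTSL is a lysosomal cysteine protease. ZBTB16 is a zinc finger repressor, CITED2 is a partner of the CBP and p300 coactivators that limits hypoxia responses, and PPARG is a nuclear receptor of lipid metabolism.

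All 7 are protein-coding genes, given here in the build GRCm38 with the annotation GENCODE M21. *Pgr* lies on the forward strand at chr9:8899833-8968611 and *Zbtb16* on the reverse strand of the same chromosome at chr9:48654297-48836222. *Adamts1* lies on the reverse strand at chr16:85793827-85803113 and *Ctsl* on the reverse strand at chr13:64359337-64370890. *Edn2* at chr4:120161206-120167360, *Cited2* at chr10:17723218-17725674 and *Pparg* at chr6:115360951-115490399 are on the forward strand.

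*Pgr*, *Adamts1* and *Edn2* were the 3 members that were at least 2-fold higher in GCs of barcode set 2 than in those of both other sets, and the 250 bases before their starts are shown for that reason. They were taken from RefSeq in the build GRCm38.p6, at chr9:8899583-8899832 on the forward strand, chr16:85803114-85803363 on the reverse strand and chr4:120160956-120161205 on the forward strand. RefSeq promoters were matched for 6 of the 7 members, 8 promoters in all. Capitals mark the letters GGGCGG of a GC box, which SP factors bind, TGACG, the half-site of cAMP response elements, and CCAAT, each searched on both strands.
*Pgr*: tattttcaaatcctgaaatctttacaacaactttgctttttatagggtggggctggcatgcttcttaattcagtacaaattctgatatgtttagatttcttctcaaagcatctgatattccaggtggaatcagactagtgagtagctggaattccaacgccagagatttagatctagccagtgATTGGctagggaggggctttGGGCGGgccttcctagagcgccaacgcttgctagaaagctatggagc
*Adamts1*: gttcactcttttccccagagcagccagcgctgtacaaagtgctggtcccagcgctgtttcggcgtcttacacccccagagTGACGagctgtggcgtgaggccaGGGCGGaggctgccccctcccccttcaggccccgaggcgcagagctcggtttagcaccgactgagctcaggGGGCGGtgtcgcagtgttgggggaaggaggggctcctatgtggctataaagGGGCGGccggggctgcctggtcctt
*Edn2*: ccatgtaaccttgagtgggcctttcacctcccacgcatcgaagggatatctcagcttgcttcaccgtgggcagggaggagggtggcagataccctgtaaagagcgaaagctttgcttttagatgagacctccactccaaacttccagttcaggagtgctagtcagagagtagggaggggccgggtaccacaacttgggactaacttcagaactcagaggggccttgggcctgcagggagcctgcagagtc
The *Pgr* window held 1 GC box, at positions -47 to -42 from the start, and 1 CCAAT box. The *Adamts1* window held 3 GC boxes and 1 TGACG, and that of *Edn2* held none of these letters. Of 32851 promoter windows of the same length, 32.7% held a GC box, 8.47% held 3 or more, 33.8% held a CCAAT box and 17.8% held TGACG. The hormone response half-site TGTTCT, the palindromic hormone response element, in which the half-site can lie, and the AP-1 letters TGANTCA were in none of the 8 windows, against 16.1%, 0.387% and 6.75% of all windows. *Cited2* had 2 GC boxes, *Ctsl* had none, and 2 of the 3 windows of *Pparg* had at least 1. The *Ctsl* window, chr13:64370521-64370770, lies inside the GENCODE gene given above, so it is not the sequence before the start in that annotation. The same holds for the *Pparg* windows chr6:115362099-115362348 and chr6:115421816-115422065. The windows of *Pparg* at chr6:115360894-115361143 and of *Cited2* at chr10:17722978-17723227 run across the start of the GENCODE gene. A match is a matter of letters only.

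The barcode sets held 10384, 9917 and 11475 cells with median depths of 6093, 6352 and 6524 UMIs, the counted mRNA molecules. Pairs of sets shared between 27 and 46 barcodes, and no barcode was in all 3. Cells were put in a class by the summed level of its marker genes, none of which is a member. The GC-like class held 4182, 4338 and 4471 cells in sets 1, 2 and 3, theca-like cells numbered 984, 353 and 380, and stroma-like cells 2927, 2810 and 3350. Between 447 and 681 endothelial-like, 83 and 148 smooth muscle-like and 81 and 134 myeloid-like cells per set were also gated. Of cells whose strongest list was that of GCs, 410 lay within a factor of 1.2 of the margin over the next class that the gate asks for, and 500 within that factor of its level. The 13 GC markers summed to 163, 163 and 64.3 UMIs per 10000 in GC-like cells of sets 1, 2 and 3, so the class was marked more weakly in set 3. In the same cells the markers of the stroma, endothelial, smooth muscle and myeloid classes had medians of 0 and those of theca were between 3.4 and 4.47. The luteal markers summed to 4.43, 5.71 and 13.4 in GC-like cells of sets 1, 2 and 3, so they were highest in set 3, and their part in the results for set 3 was not tested.

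*Pgr* was near absent from GC-like cells of set 1, was abundant in set 2 and was at an intermediate level in set 3. Its level, the mean over cells of UMIs per 10000, was 0.0133 in set 1 (47 UMIs, 95% Poisson interval 0.0098 to 0.0177), 0.99 in set 2 (3138 UMIs, 0.956 to 1.03) and 0.131 in set 3 (487 UMIs, 0.12 to 0.143). The intervals were far apart. Set 2 was 74.3 times set 1 (55.7 to 101), the 28th largest ratio of 14966 genes, and set 3 was 0.132 times set 2 (0.12 to 0.146) and 9.84 times set 1 (7.28 to 13.6). With every cell thinned to 3000 UMIs, 0.46%, 19.8% and 3.57% of GC-like cells had a *Pgr* UMI in sets 1, 2 and 3, and unthinned the shares were 1%, 30.6% and 8.19%. Myeloid-like cells, which should lack *Pgr*, had none in 61, 84 and 80 thinned cells, which allows up to 4.92%, 3.57% and 3.75%, at median depths of 4839, 4820.5 and 3417 UMIs against 5967.5, 6764 and 6875 in GC-like cells. Endothelial-like cells, the larger reference, had a *Pgr* UMI in 0 of 372 thinned cells of set 1, which allows 0.806%, in 1.59% of set 2 (0.731% to 3%) and in 1.18% of set 3 (0.322% to 2.99%), at median depths of 5165.5, 5218 and 4829 UMIs. The GC-like share of set 1 was thus within background and that of set 2 was above both references. That of set 3 (3.03% to 4.17%) lay above the endothelial-like share but under the limit of the small myeloid-like reference. The ratios over set 1 and the rank thus rest on a GC-like level that was not separated from background, and their size is not a measure of expression in set 1.

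Theca-like cells, the steroid-making layer around the follicle, shared the high level of set 2. Their *Pgr* level was 0.139 in set 1, 0.943 in set 2 (0.855 to 1.04) and 0.098 in set 3. In set 2 the GC-like level was 1.05 times the theca-like level (0.948 to 1.17), so the order of these neighbours was not separated by counting error, and 20.5% of 347 thinned theca-like cells had a UMI. *Fshr*, a defining GC marker, was at 0.0116 in theca-like cells of set 2 and at 0.687 in GC-like cells, and *Inha* was at 11.9 and 63.3. Both genes are GC markers of the gate, so their lower theca-like levels follow in part from how the cells were chosen. In set 1 theca-like and stroma-like cells were highest, and GC-like cells stood at 0.0958 times the theca-like level (0.068 to 0.133). Stroma-like cells did not share the rise. Their level was 0.13, 0.113 and 0.071 in sets 1, 2 and 3, and set 2 stood at 0.872 times set 1 (0.715 to 1.06). Endothelial-like cells had 0, 20 and 5 *Pgr* UMIs and myeloid-like cells at most 1. GC-like cells held 7.45% of all *Pgr* UMIs of set 1, 77.7% of those of set 2 and 60.3% of those of set 3. They held 38.7%, 45.9% and 42.2% of the UMIs of all genes. Cells in no class made up 16%, 15.3% and 22.1% of the cells of sets 1, 2 and 3. They held 29%, 6.42% and 11.9% of the *Pgr* UMIs.

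**Figure D1:**
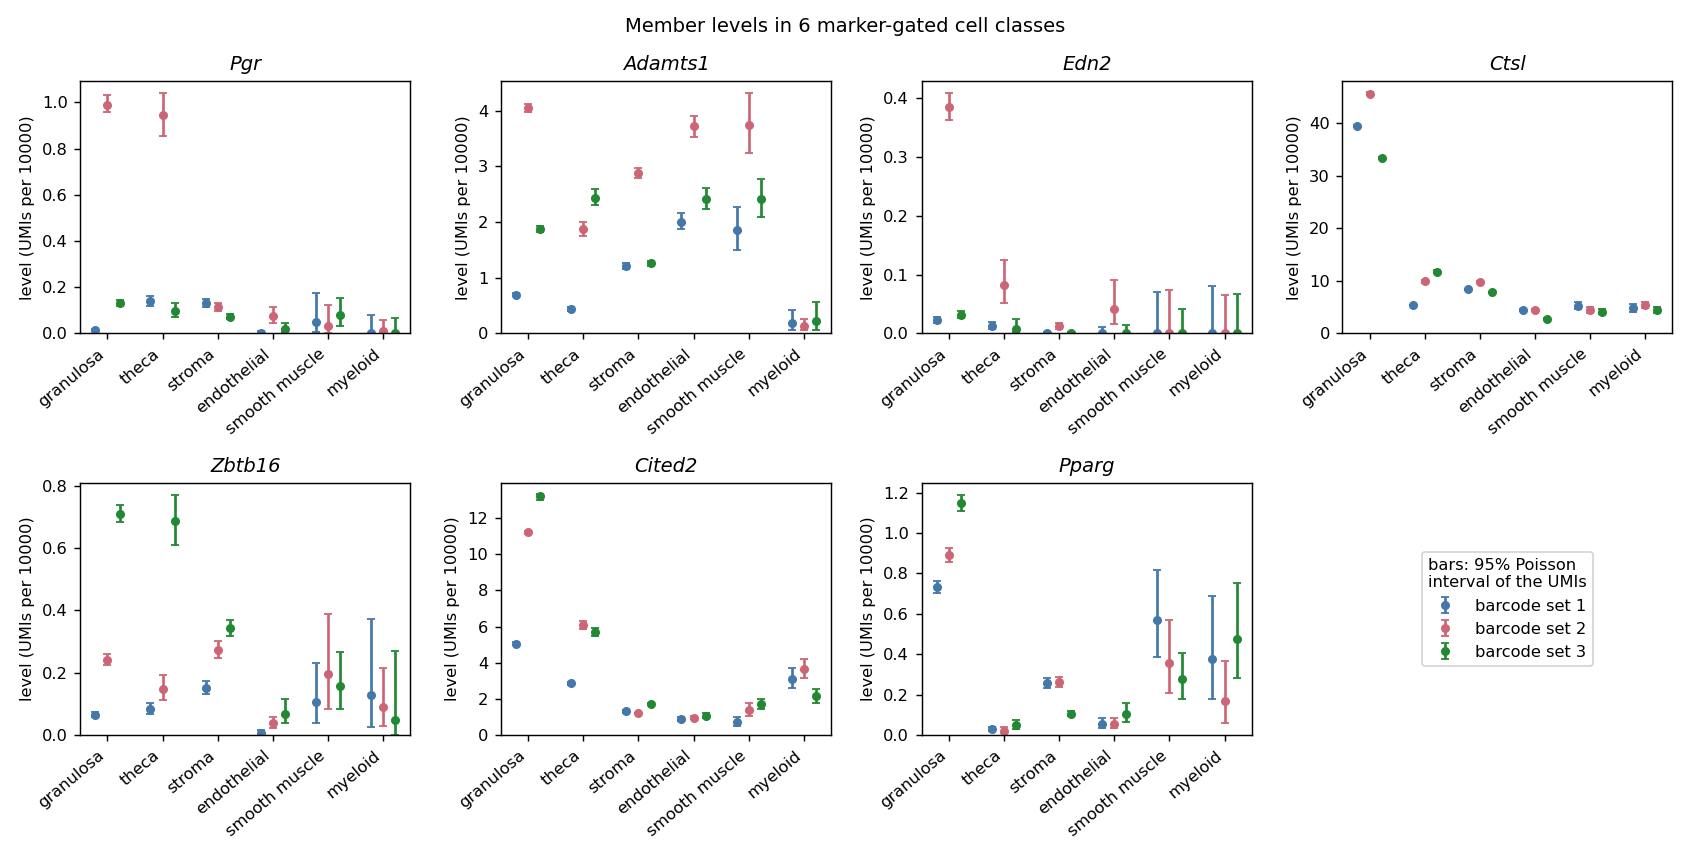
Level of each of the 7 genes (y axis, mean UMIs per 10000, linear from 0) in 6 marker-gated cell classes (x axis) of barcode sets 1, 2 and 3 (colours), with 95% Poisson intervals of the summed UMIs as bars. *Pgr* stood at 0.99 in GC-like and 0.943 in theca-like cells of set 2, and *Zbtb16* was highest in the same 2 classes of set 3.

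*Adamts1*, the protease, was ordered over the sets as *Pgr* was in GC-like cells, but was not highest in these cells in sets 1 and 3. Its GC-like level was 0.698 in set 1 (0.67 to 0.728), 4.05 in set 2 (3.98 to 4.12) and 1.88 in set 3 (1.83 to 1.93), so set 2 was 5.8 times set 1 (5.55 to 6.07) and set 3 was 0.464 times set 2 (0.45 to 0.478). Set 2 was also the highest set for stroma-like, endothelial-like and smooth muscle-like cells. Theca-like cells differed, with levels of 0.444, 1.87 and 2.44, highest in set 3, and myeloid-like cells had 4 to 8 UMIs per set. Endothelial-like cells had 2.01, 3.72 and 2.42, and in set 1 they were above GC-like cells, which stood at 0.347 times their level (0.319 to 0.378). GC-like cells held 33.5%, 57.7% and 47.2% of the *Adamts1* UMIs of sets 1, 2 and 3.

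*Edn2*, the contractile peptide, was concentrated in few GC-like cells of set 2. Its GC-like level was 0.0221 in set 1 (70 UMIs), 0.385 in set 2 (1121 UMIs, 0.363 to 0.409) and 0.0311 in set 3 (109 UMIs). Set 2 was 17.4 times set 1 (13.7 to 22.5) and set 3 was 0.0806 times set 2 (0.0656 to 0.0982), while sets 1 and 3 lay close, at a ratio of 1.4 (1.03 to 1.92). Unlike *Pgr*, it was not at a like level in theca-like cells, since the GC-like level of set 2 was 4.69 times theirs (3.08 to 7.51) and 32.5 times that of stroma-like cells (21.3 to 52). No *Edn2* UMI was seen in smooth muscle-like or myeloid-like cells of any set, but these classes were too small to set their order against GC-like cells in sets 1 and 3. The 8 epithelial-like cells of set 1 held 3 *Edn2* UMIs. Thinned, 4.81% of GC-like cells of set 2 had an *Edn2* UMI, against 0 of 84 myeloid-like cells, which allows 3.57%, and 0.355% of 2533 stroma-like cells. The GC-like shares of sets 1 and 3, 0.486% (0.293% to 0.757%) and 0.47% (0.287% to 0.724%), lay above the stroma-like shares of 0.0817% (up to 0.295%) and 0.0314% (up to 0.175%) but under the limits of 0.806% and 0.885% that no UMI in the fewer endothelial-like cells allows. Unthinned, 339 of 4338 GC-like cells (7.81%) held all 1121 UMIs, up to 34 in 1 cell, and the top 1% of cells (43 cells) held 50.3% of them. For *Pgr* in the same cells the top 1% held 11.4%, so its UMIs were spread over more cells, at most 17 in 1 cell.

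*Zbtb16*, the zinc finger repressor, was the only member at least 2-fold higher in GC-like cells of set 3 than of set 2. Its GC-like level was 0.066 in set 1 (0.0576 to 0.0752), 0.242 in set 2 (0.224 to 0.261) and 0.71 in set 3 (0.682 to 0.739), a ratio of 3.66 (3.14 to 4.28) for set 2 over 1 and of 2.94 (2.7 to 3.2) for set 3 over 2. Theca-like cells had 0.0842, 0.148 and 0.687, and stroma-like cells 0.151, 0.274 and 0.343. GC-like cells were thus below stroma-like cells in set 1 and above them in set 3. Thinned shares in GC-like cells were 2.15%, 6.12% and 16.9%, and endothelial-like cells had 0.269%, 1.24% and 1.77%. Myeloid-like cells had a UMI in 1, 4 and 0 of 61, 84 and 80 thinned cells, or 1.64% (0.0415% to 8.8%) and 4.76% (1.31% to 11.7%) in sets 1 and 2, so the GC-like shares were separated from this small reference in set 3 and not in sets 1 and 2.

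*Cited2* was higher in sets 2 and 3 than in set 1, in GC-like and theca-like cells. Its GC-like level was 5.04, 11.2 and 13.2 in sets 1, 2 and 3, and set 2 was 2.22 times set 1 (2.18 to 2.26) and set 3 was 1.18 times set 2 (1.16 to 1.19). Theca-like cells had 2.86, 6.09 and 5.71, whereas stroma-like cells had 1.31, 1.2 and 1.72 and endothelial-like cells between 0.898 and 1.07. Smooth muscle-like cells had 0.718, 1.39 and 1.7, so set 2 was 1.94 times set 1 (1.29 to 2.95) and set 3 was 2.36 times set 1 (1.66 to 3.44) there too. It was highest in GC-like cells in every set.

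*Pparg* and *Ctsl* differed least between the sets in GC-like cells. *Pparg* was at 0.732, 0.89 and 1.15, and set 3 was 1.57 times set 1 (1.49 to 1.65). Theca-like cells had little of it, with levels of 0.0292, 0.0227 and 0.0489, and it went down in stroma-like cells from 0.264 in set 2 to 0.105 in set 3, a ratio of 0.399 (0.34 to 0.468). *Ctsl* was at 39.5, 45.5 and 33.3 in GC-like cells, between 4.24 and 4.72 times the stroma-like level. Unthinned, *Ctsl* was detected in 98.7% to 99.3% of GC-like, 94.2% to 98.6% of theca-like and 93% to 96.3% of stroma-like cells. It was detected in 67.9% to 76.3% of myeloid-like and 69.4% to 85.3% of endothelial-like cells. Thinned to equal depth, the shares were 95.6% to 99.1% in GC-like, 68.1% to 78.7% in theca-like and 77.9% to 88% in stroma-like cells. In theca-like cells *Ctsl* was at 5.34, 9.91 and 11.7, so set 3 was 2.19 times set 1 there (2.11 to 2.28) against 0.843 times in GC-like cells (0.836 to 0.85).

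Of the 7 members, 5 were at least 2-fold higher in set 2 than in set 1 in GC-like cells, *Pgr*, *Adamts1*, *Edn2*, *Zbtb16* and *Cited2*, and none was 2-fold lower. Over 14966 genes with at least 20 UMIs, 8.57% were as much higher and 21.4% as much lower. The median gene stood at 0.732, so the members lay above a table that leaned the other way. The members were chosen with earlier results of these data known, so their counts against all genes are no independent support. From set 2 to set 3, *Pgr*, *Adamts1* and *Edn2* were at least 2-fold lower (10.9% of 15025 genes were) and *Zbtb16* alone was 2-fold higher (20.2% were), with a median gene at 1.22. Set 3 over set 1 had 4 members higher, *Pgr*, *Adamts1*, *Zbtb16* and *Cited2*, against 11.1% of genes, and this comparison shares its cells with the other 2. No member was 2-fold lower in it, against 15.5%.

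The same count in the other classes differed by gene. In theca-like cells 4 members were at least 2-fold higher in set 2 than in set 1, *Pgr*, *Adamts1*, *Edn2* and *Cited2*, against 6.81% of genes. None was lower, against 24.5%. The *Edn2* call rests on 20 and 22 UMIs in sets 1 and 2. Thinned, the theca-like share with an *Edn2* UMI was 0.409% in set 1 (4 cells) and 0.288% in set 2 (1 cell), too few to show a direction. Unthinned, at median depths of 11774.5 and 11621 UMIs, it was 0.711% and 1.98%. From set 2 to set 3 *Zbtb16* and *Pparg*, the latter on 11 and 24 UMIs, were higher in theca-like cells (22.6% of genes). *Pgr* and *Edn2*, the latter on 22 and 3 UMIs, were lower (10.9%). Set 3 over set 1 had *Adamts1*, *Ctsl* and *Zbtb16* higher in theca-like cells (9.58%) and no member lower (19.0%). The theca markers summed to 91, 91.1 and 54.1 UMIs per 10000 in theca-like cells of sets 1, 2 and 3 and the luteal markers to 10.7, 10.8 and 24.7, and their part in these ratios was not tested. In stroma-like cells *Adamts1* and *Edn2* were higher in set 2 than in set 1 (3.73%) and none was lower (6.93%). From set 2 to set 3 *Adamts1*, *Edn2* and *Pparg* were lower (12.8%) and none was higher (10.3%). Stroma-like cells had 4, 22 and 2 *Edn2* UMIs in sets 1, 2 and 3, at shares used above as a reference for GC-like cells. Set 3 over set 1 there had *Zbtb16* higher (7.87%) and *Pparg* lower (16.8%) of 6 members with enough UMIs. In endothelial-like cells *Pgr* and *Zbtb16* were higher in set 2 than in set 1, on 0 and 20 and on 4 and 19 UMIs (2.68%), with none lower of 6 (4.09%). From set 2 to set 3 *Pgr* was lower there (8.79%) and none was higher (5.43%), and of 4 members with enough UMIs in set 3 over set 1 none passed either way (4.77% higher and 10.7% lower). The rise of *Pgr* in set 2 was thus seen in GC-like and theca-like cells and not in stroma-like cells. Endothelial-like cells, with 0 and 20 *Pgr* UMIs in sets 1 and 2, are themselves the reference used as background. Their own rise cannot be judged against it. The 8 dissociation response genes in GC-like cells summed to 45, 84.6 and 63.7 UMIs per 10000 in sets 1, 2 and 3 and mitochondrial genes took 4.72%, 5.15% and 3.49% of UMIs, and their part in these ratios was not tested.

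**Figure D2:**
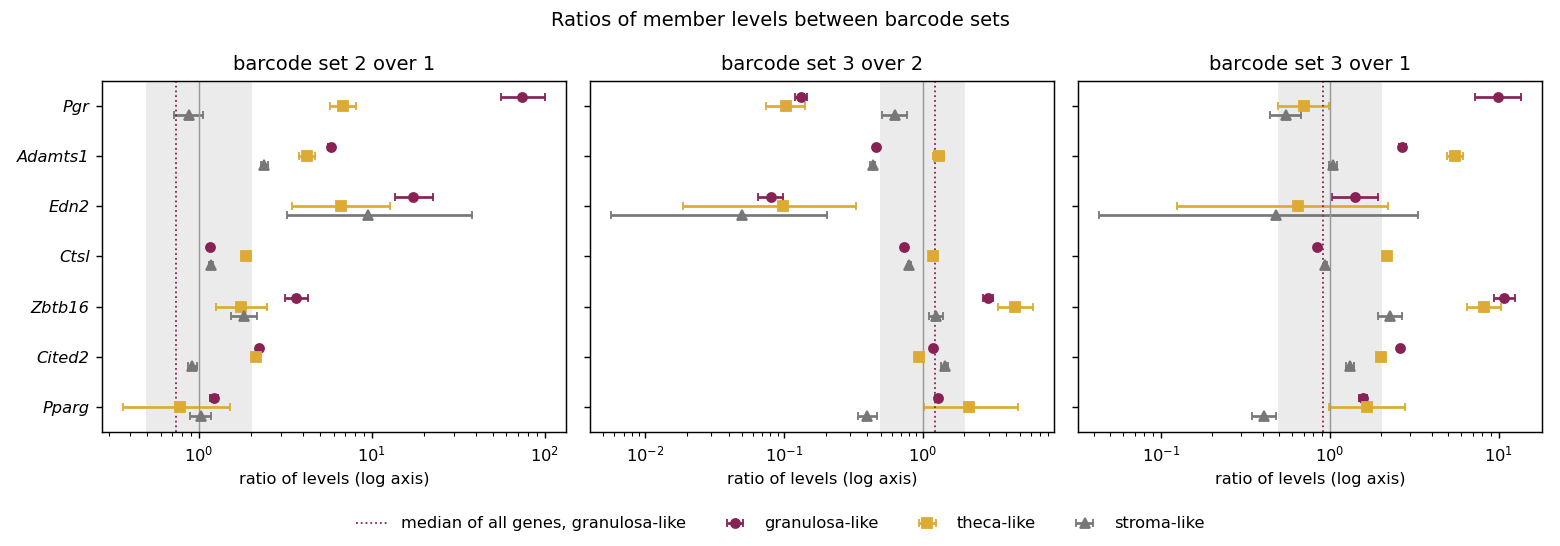
Ratio of the level of each gene between 2 barcode sets (x axis, log scale) in GC-like, theca-like and stroma-like cells (symbols), with 95% conditional binomial intervals. The grey band covers changes under 2-fold and the dotted line is the median of all genes in GC-like cells, at 0.732, 1.22 and 0.914 in the 3 panels.

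Set against all other gated cells of the same set, GC-like cells had at least 2-fold more *Edn2*, *Ctsl*, *Cited2* and *Pparg* in all 3 sets. *Pgr* joined them in set 2, at 5.69 times the other cells (5.23 to 6.21), and *Zbtb16* in set 3. In set 1 *Pgr* was the only member lower, at 0.116 times (0.0841 to 0.158), as were 20.5% of genes, and none was lower in sets 2 and 3, against 24.7% and 17.8%. The counts of 4, 5 and 5 members higher in sets 1, 2 and 3 stood beside 11.9%, 11.7% and 15.0% of all genes.

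Within GCs the members did not share 1 site of expression. The cells of each set were clustered without the members, and 8, 8 and 7 clusters of sets 1, 2 and 3 were GC-like. In set 2, *Pgr* was highest in cluster 3, of 870 cells led by *Tnfsf11*, *Comp* and *Tchhl1*, at 2.85 (2.71 to 2.99), and this cluster held 40.4% of all *Pgr* UMIs of the set. It was also the highest for *Adamts1* (7.14), *Cited2* (22.7), *Pparg* (1.43) and *Areg* (35.4), the EGF-like ligand that relays the ovulatory signal. *Edn2* was low there, at 0.0707 (40 UMIs), and was instead highest in cluster 6, of 645 cells led by *Ihh* and *Grem1*, at 0.906, in cluster 11, of 627 cells led by *Nmu* and *Nrn1*, at 0.854, and in cluster 10, at 0.594. These 3 clusters held 29%, 21.9% and 15.9% of the *Edn2* UMIs of the set and had *Pgr* levels of 0.127, 0.562 and 0.0275. They were also the 3 highest for *Ctsl*, at 76.1, 72.8 and 53.8. The second highest *Pgr* level, 1.28, was in cluster 18, of 648 cells, which held 17.2% of the *Pgr* UMIs of the set. *Pgr* was also found in cluster 15, led by the mitotic genes *Bub1*, *Cep55* and *Ube2c*, at 0.921, where the median depth was 11319 UMIs.

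Over the 8 GC-like clusters of set 2, Pearson's r with *Pgr* was 0.94 for *Adamts1*, 0.91 for *Cited2*, 0.77 for *Pparg*, 0.31 for *Zbtb16*, -0.01 for *Ctsl* and -0.30 for *Edn2*. Over the 7 clusters of set 3 it was 0.88 for *Zbtb16* and *Pparg*, 0.86 for *Cited2*, 0.78 for *Adamts1*, 0.64 for *Ctsl* and -0.26 for *Edn2*. All are of log2 levels after adding 0.05. In set 3 the *Edn2* levels of the clusters ran only from 0.0137 to 0.0725, around the added 0.05, so its r there says little. These values describe clusters of 1 set that share its library and are given without a test. Clusters were made in each set alone and were not matched between sets. In set 2 *Zbtb16* was highest in cluster 11, at 0.734, and at 0.136 in the cluster with the most *Pgr*. In set 3 it was highest in cluster 6, of 1480 cells with *Comp* and *Npy* among its leading genes, at 1.63, where *Pparg* (2.45), *Cited2* (25), *Adamts1* (3.69) and *Ctsl* (59.9) were highest as well, and where *Pgr* was at 0.205, close to the 0.238 and 0.29 of clusters 3 and 18. The cluster of set 3 led by *Ptx3*, a gene of the expanding cumulus matrix, had *Adamts1* at 2.85 and *Zbtb16* at 0.827, with little *Pgr*, at 0.049.

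**Figure D3:**
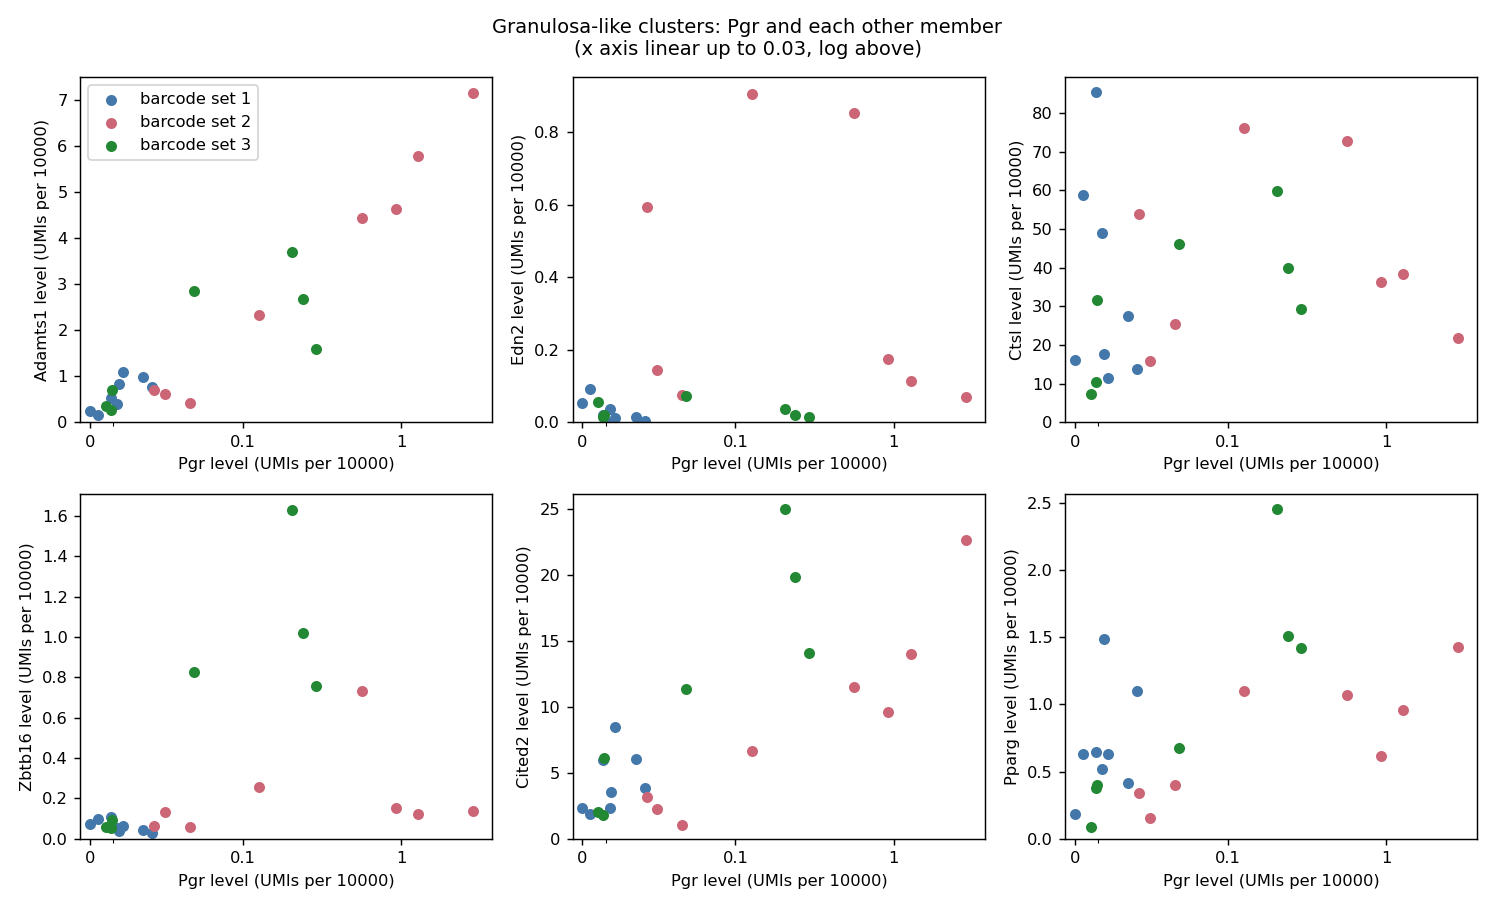
Level of *Pgr* (x axis, UMIs per 10000, linear up to 0.03 and log above) against each other gene (y axis, UMIs per 10000) in the 23 GC-like clusters, coloured by barcode set. In set 2 *Adamts1* and *Cited2* were highest in the cluster with the most *Pgr*, and *Edn2* was highest in clusters with *Pgr* between 0.0275 and 0.562.

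Single cells gave the same contrast between *Adamts1* and *Edn2*. In set 2, with all cells thinned to 3000 UMIs, 817 GC-like cells had a *Pgr* UMI and 3301 had none. *Adamts1* was at 7.24 in the first and 3.36 in the second, a ratio of 2.15 (2.03 to 2.28), and *Cited2* was at 19.1 and 9.67, a ratio of 1.98 (1.91 to 2.05). *Pparg* had a ratio of 1.44 (1.26 to 1.65), *Ctsl* of 0.616 (0.601 to 0.631) and *Zbtb16* of 0.591 (0.407 to 0.837). *Edn2* was at 0.0898 in cells with a *Pgr* UMI and 0.449 in those without, a ratio of 0.2 (0.124 to 0.306), and 16 cells had both where the product of the shares gives 39.3. Of the 6 genes, *Adamts1* was thus at least 2-fold higher, as were 2.79% of 11696 genes, and *Edn2* at least 2-fold lower, as were 14.0%. *Lhcgr*, the receptor of the ovulatory hormone, had a ratio of 3.54 (3.14 to 3.99) and *Areg* one of 3.25 (3.15 to 3.35). A cell without a UMI at this depth need not lack *Pgr* mRNA.

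Part of these differences lay between clusters and part within them. Values within a cluster are over all of its cells, gated or not, whereas the pooled values are over gated GC-like cells only. Within cluster 3 of set 2, where 442 cells had a *Pgr* UMI and 416 had none, the ratio was 1.24 for *Adamts1* (1.13 to 1.36), 1.06 for *Cited2* (1.01 to 1.12) and 1.1 for *Edn2*, on 7 and 6 UMIs (0.316 to 3.95). Within cluster 11, where both genes were found, *Edn2* had a ratio of 0.296 (7 and 160 UMIs, 0.117 to 0.623), with 78 cells with a *Pgr* UMI and 527 without, and *Adamts1* one of 0.741 (0.583 to 0.93). *Adamts1* stood at 1.88 (1.56 to 2.25) and *Cited2* at 1.83 (1.61 to 2.08) within the mitotic cluster 15. Within cluster 18 *Adamts1* was at 1.62 (1.43 to 1.83) and *Cited2* at 1.14 (1.05 to 1.24). *Cited2* was at 0.979 (0.858 to 1.11) within cluster 11. The lower *Edn2* was therefore seen inside 1 cluster as well, and in clusters 15 and 18 the counts were too low to show a direction. *Pparg*, pooled at 1.44, was at 0.812 (0.66 to 0.998) within cluster 3, 1.41 (0.944 to 2.05) within cluster 11, 0.603 (0.265 to 1.21) within cluster 15 and 1.39 (1.01 to 1.91) within cluster 18. *Ctsl*, pooled at 0.616, was at 0.958 (0.909 to 1.01) within cluster 3 and 1.03 (0.979 to 1.08) within cluster 18, while it was at 0.713 and 0.675 within clusters 11 and 15.

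In set 3, 152 thinned GC-like cells had a *Pgr* UMI and 4107 had none. *Cited2* had a ratio of 1.8 (1.69 to 1.91), *Zbtb16* of 1.78 (1.33 to 2.35), *Pparg* of 1.75 (1.39 to 2.16), *Adamts1* of 1.51 (1.25 to 1.81) and *Ctsl* of 1.03 (0.978 to 1.08). Within clusters 3, 6 and 18 of this set, again over all cells of a cluster, the ratios differed by gene. Of the 1480 cells of cluster 6, 1186 were gated as GC-like. *Zbtb16* was at 1.12 (0.584 to 1.98), 1.18 (0.846 to 1.61) and 0.578 (0.184 to 1.39), and *Adamts1* at 1.05 (0.71 to 1.49), 0.915 (0.719 to 1.15) and 1.19 (0.713 to 1.88), so every interval of these 2 genes held 1. *Cited2* was at 1.18 (1.04 to 1.34), 1.15 (1.06 to 1.24) and 1.15 (0.979 to 1.34). *Pparg* was at 1.05 (0.612 to 1.7), 1.19 (0.913 to 1.52) and 1.75 (1.12 to 2.64), the last as large as the pooled value. *Ctsl* was farther from 1 than its pooled value in all 3, at 0.862 (0.778 to 0.953), 0.676 (0.633 to 0.721) and 1.17 (1.05 to 1.3). No *Edn2* UMI fell in the 152 cells and 29 fell in the others, of which the shares alone give 0.714 cells with both, so *Edn2* cannot be read here. None of the 6 reached 2-fold, against 4.65% of 11951 genes higher and 8.33% lower. In set 1 only 18 cells had a *Pgr* UMI, and no ratio is described.

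**Figure D4:**
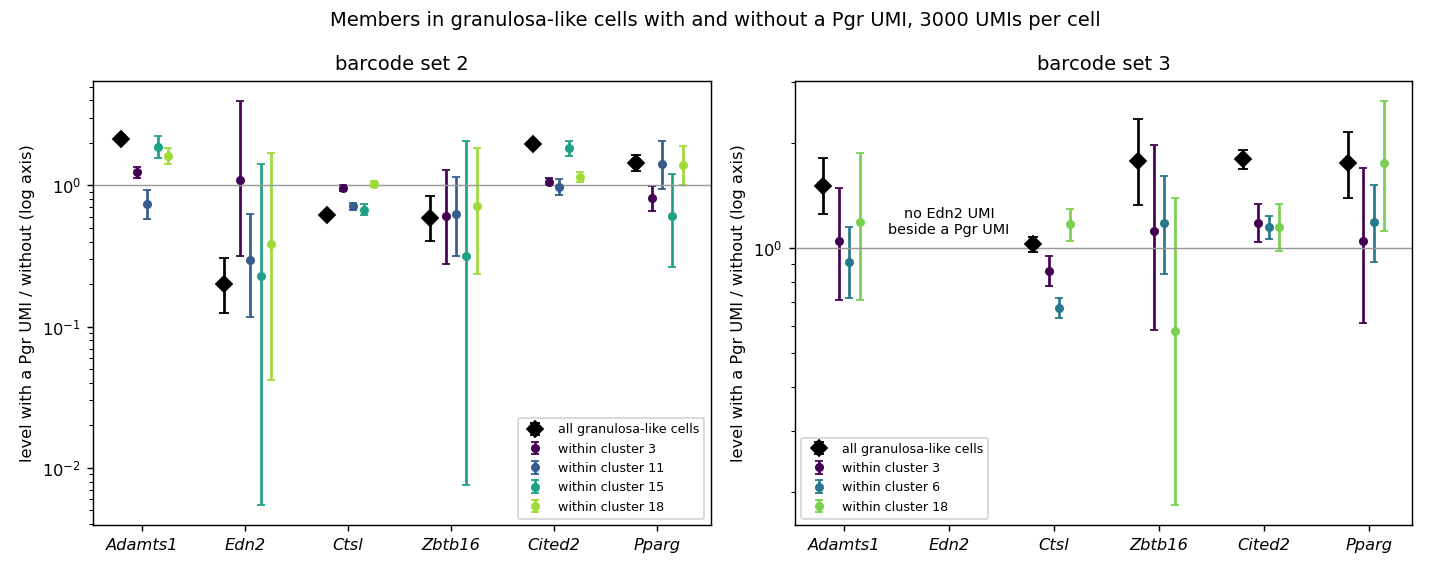
Level in GC-like cells with a *Pgr* UMI over the level in those without (y axis, log scale) for the 6 other genes (x axis), all cells thinned to 3000 UMIs, for barcode sets 2 and 3. Diamonds are all gated GC-like cells, and bars are 95% conditional binomial intervals. Dots are all cells, gated or not, of single GC-like clusters with at least 30 cells with a *Pgr* UMI. In set 2 *Adamts1* stood at 2.15 and *Edn2* at 0.2.

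The other genes reported to depend on *Pgr* in ovulation were, as a list, higher in set 3, where *Pgr* itself was lower than in set 2. This list and those below were chosen with earlier results of these data known. Their counts against all genes are therefore no independent support. Of 10 listed genes, 9 were at least 2-fold higher in set 3 than in set 2 in GC-like cells and none was lower, against 20.2% and 10.9% of all genes, with a median ratio of 5.47 against 1.22 for all genes. *Prkg2*, a cGMP-dependent kinase, went from 0.0219 to 2.16, *Rhox8*, a homeobox gene, from 1.35 to 13.5, *Cxcr4*, a chemokine receptor, from 0.26 to 1.05, and *Adcyap1*, which encodes the peptide PACAP, from 0.009 to 0.129. *Hif1a*, the tenth, was at 2.53 and 3.98, a ratio of 1.58. From set 1 to set 2, 6 of the 9 genes with enough UMIs were 2-fold higher, against 8.57% of all genes, with a median ratio of 3.81 against 0.732, among them *Snap25*, a vesicle fusion protein, at 0.000318 (1 UMI) and 0.0526 (152 UMIs), and *Cxcr4* at 0.0158 and 0.26. *Zbtb16* had the course of this list rather than that of *Pgr*.

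**Figure D5:**
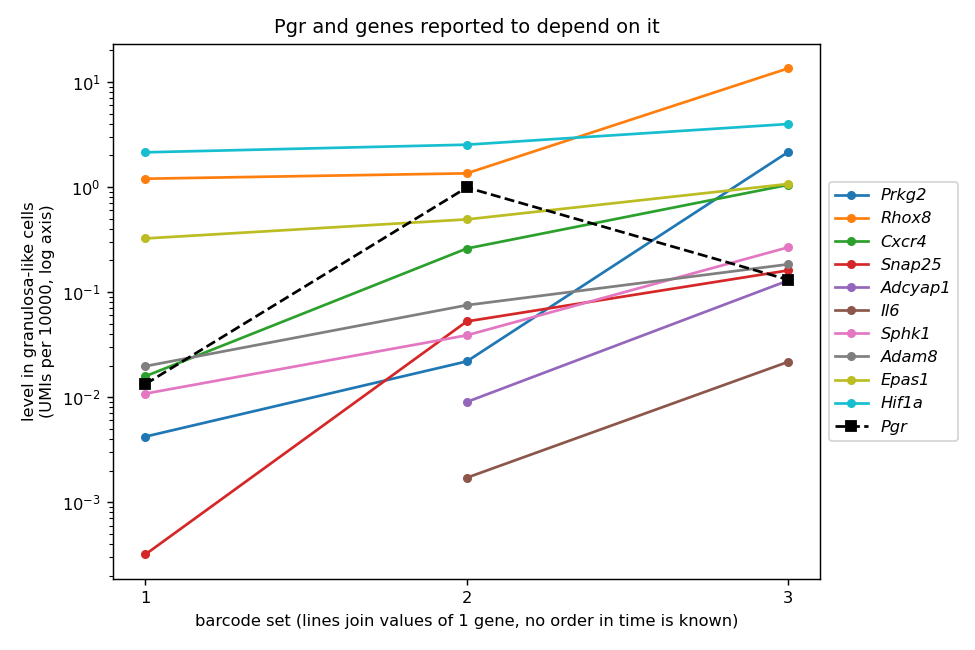
Levels in GC-like cells of *Pgr* (black squares, dashed) and 10 genes reported to depend on it. The y axis is UMIs per 10000 on a log scale and the x axis is barcode sets 1, 2 and 3. Lines join the values of 1 gene, and *Il6* and *Adcyap1*, with no UMI in set 1, have no point there. *Pgr* was highest in set 2 and the 10 genes in set 3.

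Among the listed genes of the ovulatory signal, *Areg*, *Ereg* and *Ptgs2* were highest in set 2. For the lists that follow, 8.57% of all genes were at least 2-fold higher and 21.4% lower in set 2 than in set 1, and 20.2% higher and 10.9% lower in set 3 than in set 2. Of 7 genes listed, 4 were higher in set 2 than in set 1, *Areg*, *Ereg*, *Btc* and *Ptgs2*, and 4 were lower in set 3 than in set 2, *Lhcgr*, *Areg*, *Ereg* and *Ptgs2*, with *Egfr* higher. *Areg* was at 0.0168, 13.6 and 0.12 in sets 1, 2 and 3, and *Lhcgr* at 1.25, 0.831 and 0.283. Among 13 co-regulators and partner factors, *Cebpb* (2.94, 16.7 and 7.01), *Runx1* (0.57, 3.91 and 6.36) and *Runx2* (0.0854, 0.176 and 2.71) were higher in set 2 than in set 1 and none was lower. From set 2 to set 3, *Runx2* and *Fkbp5*, a chaperone of steroid receptors, were higher and *Cebpb* was lower, with *Fkbp5* at 0.46, 0.442 and 1.7. SP1 and SP3, which bind GC boxes, were encoded at levels within 2-fold, *Sp1* between 0.247 and 0.371 and *Sp3* between 0.493 and 0.6. Of 6 genes of progesterone synthesis, *Star*, *Fdx1* and *Scarb1* were higher in set 2 than in set 1 and none was lower, and from set 2 to set 3 *Fdxr* was higher and *Hsd3b1* and *Fdx1* were lower, with *Star*, which brings cholesterol into mitochondria, at 0.085, 4.78 and 7.52.

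Other receptors of steroids are read against the shares of all genes. These were 8.57% higher and 21.4% lower in set 2 than in set 1, where the median gene stood at 0.732. They were 20.2% higher and 10.9% lower in set 3 than in set 2, and 11.1% and 15.5% in set 3 than in set 1. Among 6 membrane progesterone receptors *Paqr5* was higher in set 2 than in set 1, on 10 and 49 UMIs, and *Paqr6* and *Paqr7* were lower. From set 2 to set 3 none passed 2-fold. *Pgrmc1* was at 1.39, 1.24 and 1.43. Of 5 other steroid receptors none was 2-fold higher in any pair of sets and *Esr2* and *Nr3c2* were lower in set 2 than in set 1, *Nr3c2* in set 3 than in set 2, and *Esr1*, *Esr2* and *Nr3c2* in set 3 than in set 1. *Esr2*, the estrogen receptor of GCs, was at 1.23, 0.558 and 0.4. Of 27 substrates, processing enzymes, receptors and partners of the 6 other members, 26 had enough UMIs in set 2 over 1, of which 6 were higher and 3 lower, and in set 3 over 2 there were 4 and 3, near the 20.2% and 10.9% of all genes. *Vcan*, the versican that ADAMTS1 cleaves, was at 4.23, 8.92 and 26.4, so it was highest in set 3 where *Adamts1* was lower than in set 2. *Adamts5* was at 3.79, 1.58 and 0.374. *Edn1* had the order of *Edn2*, at 0.03, 0.17 and 0.0464, and the endothelin receptor *Ednra* was at 0.389, 0.573 and 0.324.

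Genes with the pattern most like that of *Pgr* were ranked by Pearson's r of log2 levels after adding 0.05. Over the 18 points of 6 classes in 3 sets, *Clps* (0.94), *Gpr3* (0.91), *Nefm* (0.91), *Gm20400* (0.90) and *Egr4* (0.90) were nearest of 17737 genes, and of the members *Edn2* was 63rd (0.81). Over the 23 GC-like clusters, *Epgn* (0.98), *Zfand5* (0.96), *Hs3st1*, *Inpp1* and *Ptgfr* (each 0.95) were among the nearest of 15843 genes. There *Adamts1* was 73rd (0.87), *Cited2* 452nd (0.71) and *Edn2* 2067th (0.31). The points of a set share its library and depth, so these ranks are descriptions. *Edn2* was thus near *Pgr* when classes and sets were compared and far from it when clusters of GCs were. Over classes and sets, only its levels in GC-like (0.385) and theca-like cells (0.0823) of set 2 were above the added 0.05. Its rank of 63rd therefore rests on few points.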

How the data were processed

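Libraries were made with the 10x Genomics platform. Per the submitters' processing notes, the authors used Cell Ranger, Seurat and the build mm10, with versions not given in the sources used here. The deposited table holds natural log values, ln(1 + UMIs per 10000), of 24958 genes in 31776 cells. Every cell summed to 10000. Whole UMIs were worked back by taking the smallest value of a cell as 1 UMI. Where the other values were then not whole multiples, it was taken as a few UMIs. Each list level was divided by a reference, its median over cells of all sets with at least 5 of the markers detected. Cells were put in a class where at least 3 markers were detected and this relative level passed a minimum. It also had to be at least 2 times that of the next class. These limits were set after the list levels were seen. Cells passing several gates were left out, and no doublet caller was run. Clusters were made per barcode set with python-igraph 0.11.9 (Louvain), without the members. Levels had exact Poisson intervals and ratios conditional binomial ones (scipy 1.17.1), for genes with at least 20 UMIs. A floor of 3 UMIs stood for 0. Shares and cells with a *Pgr* UMI used cells thinned to 3000 UMIs. Ratios were checked on summed counts drawn from a Poisson model, which the intervals also assume, so this check does not cover the spread between cells. All 7 members were named, with the lists of pathway genes, and both were chosen with earlier results of these data known, so the lists are no independent support. Alternatives changed the gate, clusters, depth, fold, filter and scaling. Python 3.11.15 and numpy 2.4.6 were used.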

Additional observations from a re-analysis of the deposited data

Results flagged for a closer look

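*Pparg* passed 2-fold in opposite directions between barcode sets 2 and 3 in different classes. Set 3 stood at 2.16 times set 2 in theca-like cells, on 11 and 24 UMIs, and at 2.84 times in myeloid-like cells, on 6 and 18 UMIs. In stroma-like cells it stood at 0.399 times, on 449 and 242 UMIs. The difference between the classes was not tested, and the theca-like and myeloid-like values rest on few UMIs.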

How the results depend on the processing

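No paired analysis was possible because each time had 1 library and no result came from a test. Of 240 counts and ratios recomputed for the comparisons, 234 kept their direction and stayed near their value, and 6 moved. The theca-like ratio of *Pgr* in set 2 over set 1, 6.78, was 5.3 with classes taken from clusters and 5.58 with cells passing several gates given to the highest class. At a fold of 3, 0 members were higher in GC-like cells of set 3 than of set 2 and 2 were higher in set 3 than in set 1. With thinning to 2000 UMIs, 1 member, *Pparg*, reached 2-fold in cells of set 3 with a *Pgr* UMI, and with no thinning 2 did in set 2, *Adamts1* and *Cited2*. Of 304 other values, which were ratios of single members and counts over all genes in GC-like cells, 68 moved and none reversed. Over all genes, 1282 were higher and 3198 lower in set 2 than in set 1, 3029 and 1641 in set 3 than in set 2, and 1671 and 2342 in set 3 than in set 1. Counts that moved by over 1.5 times were as follows. With no filter on low counts, 2361 were higher in set 2 over 1, 2758 lower in set 3 over 2 and 2638 higher in set 3 over 1. With at least 100 UMIs these were 773, 1001 and 1090, and 1541 were lower in set 3 over 1. At a fold of 1.5, 6283 were lower in set 2 over 1, 5411 were higher and 2726 lower in set 3 over 2, and 2726 were higher and 4123 lower in set 3 over 1. At a fold of 3, 746 were higher and 973 lower in set 2 over 1, 1157 and 833 in set 3 over 2, and 1008 and 1086 in set 3 over 1. These settings change which genes are counted by their construction, and the cause of the other moves was not tested. A gate with its reference taken within each barcode set was chosen after seeing the data. Values of *Edn2* outside GC-like cells of set 2, and of *Pgr* in GC-like cells of set 1, rest on few UMIs.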
